A study of Mus musculus with 8 samples.

Results

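The genes described are 39 components of the DNA replication machinery other than the MCM helicase subunits. They were chosen by symbol, with earlier results of these data known. They are factors of origin licensing, helicase activation, DNA synthesis, clamp loading and nucleotide supply. All 39 were found among the 55401 genes of the table, 1 row each, and all 39 were abundant enough to test (TPM of at least 1 in at least 4 of 8 dishes), as were 12122 genes in all. The members ranged from a mean of 7.93 TPM over the 8 dishes for Gins3 to 295 TPM for Pcna.

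RNA was sequenced from AML12 cells, a hepatocyte line from the liver of mice that carried a transgene for human TGFα, in 4 control dishes and 4 dishes exposed for 1 h to Opti-ELF-WMF, a pulsed magnetic field with a peak of 10 µT, pulses of 4 ms and frequencies stepping from 1 to 8 Hz. By the paper's general methods, control cells came from the same batch as exposed cells and stayed unexposed in a separate incubator. The incubator and the exposure therefore cannot be told apart. Whether all 8 samples came from 1 batch of cells is not stated for the sequencing. Each sample is called a dish here, and the p-values measure the spread between these samples. TPM is an abundance per transcript length that adds up to 1000000 in each dish, so it carries no sequencing depth and the depth of each library is unknown. Across genes, which are no independent replicates, log2(TPM + 1) of any pair of dishes had a Pearson's r between 0.9964 and 0.9976, and no pair shared over 3.79% of its values.

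Replication starts at origins that the origin recognition complex marks and that Cdc6 and Cdt1 load with the MCM helicase before S phase. At the start of S phase Cdc45 and the GINS complex join and activate the helicase, primase and polymerase α lay down primers, and the clamp loader places the PCNA ring that holds polymerases δ and ε on the template. Fen1 and ligase 1 finish the lagging strand, and ribonucleotide reductase and thymidylate synthase supply deoxynucleotides. Hepatocytes of the adult liver are mostly quiescent, whereas an established line such as AML12 divides in culture, and many of these genes are classical targets of E2F transcription factors.

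Because many of these genes share E2F regulation, their promoters were searched for the E2F-type octamers TTTCCCGC, TTTCGCGC, TTTGCCGC and TTTGGCGC on both strands. RefSeq promoter windows (GRCm38.p6, 250 bases before to 50 after the start) were found for 32 of the 39 members, the others being Gmnn, Gins1, Gins2, Gins4, Prim2, Pole and Rfc2. An octamer lay in a window of 11 of the 32 members (34.4%), against 704 of 27025 genes with a window, tested or not (2.6%). The 11 include Orc3, Gins3, Pold1 and Pold3, whose means were lower in exposed dishes. The others, with higher means, were Orc1, Cdc6, Cdt1, Pola1, Pole2, Rfc3 and Lig1. Whether the octamers relate to these differences was not tested. The pentamer CCAAT, on either strand, lay in a window of 17 of the 32 members (53.1%) and of 41.1% of all genes. A match is a description of the letters and not a measured binding site. The stretches of 30 bases around the octamer are shown for the members described with values in every dish that hold one, read 5′ to 3′ on the gene's strand with the octamer or its reverse complement in capitals. That of Cdc6 lies on the plus strand at chr11:98908002-98908031, that of Gins3 on the plus strand at chr8:95633507-95633536, that of Pola1 on the minus strand at chrX:93632275-93632304 and that of Lig1, in 1 of its 3 windows, on the plus strand at chr7:13278841-13278870.
Cdc6: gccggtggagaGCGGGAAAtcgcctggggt
Gins3: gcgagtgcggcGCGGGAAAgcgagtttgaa
Pola1: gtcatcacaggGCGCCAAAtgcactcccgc
Lig1: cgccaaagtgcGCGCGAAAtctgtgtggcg

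As a list, the 39 genes were slightly higher in exposed dishes, and no single gene passed the test. Since the list was chosen with earlier results of these data known, its counts are a description and no test. The median difference between exposed and control dishes over the 39 genes was 0.085 in log2(TPM + 1), a scale on which differences of weakly expressed genes come out too small, beside 0.026 over all 12122 tested genes. Of the 39 genes, 35 had a higher mean in exposed dishes and Orc3, Gins3, Pold1 and Pold3 a lower one. Leaving out 1 dish turned the direction of 5 of the 39 in at least 1 such fit, all with differences between -0.02 and 0.03, as given with each. Among all tested genes 63.7% were higher. By limma with Benjamini-Hochberg adjustment, 0 of the 39 genes and 0% of all tested genes had an adjusted p under 0.05. At an unadjusted p under 0.05, 18 of the 39 were higher and 0 lower, beside 12% of all tested genes higher and 3.65% lower. Here and below, shares of all tested genes are not matched for level. Their means ran from 0.675 to 33710 TPM, and those of the 39 from 7.93 to 295 TPM. Every exposed dish lay above every control dish in 10 of the 39 genes and below in 0, beside 8.01% and 1.86% of all tested genes. Without control replicate 1, the count of 10 became 18, beside 10.7% and 4.03% of all tested genes. Leaving out any other single dish gave 10 to 13, beside 9.06% to 13.4% above and 2.48% to 3.59% below. Non-overlap is easier to meet with fewer dishes. In RNA from whole dishes, a different number of cells in S phase and a different amount of these transcripts per cell cannot be told apart.

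Scaling moved these counts. Median-of-ratios scaling, which divides each dish by a factor so that most genes centre on no difference, used factors from 0.983 to 1.03. It gave a median difference of 0.063 over the 39 genes and 0.005 over all tested genes. After it 13 of the 39 were higher and 0 lower at an unadjusted p under 0.05, beside 6.79% and 5.52% of all tested genes. The 13 were all among the 18 of the deposited values. Every exposed dish lay above every control dish in 7 of the 39, all among the 10 above, and below in 0, beside 4.58% and 3.37%. Limma gave 1 gene of the table with an adjusted p under 0.05 (0.00825%), and 0 of the 39. Orc1 and Rpa2, each close to no difference, turned negative, and Orc3, Gins3, Pold1 and Pold3 were farther below 0. Of all genes with an unadjusted p under 0.05, 76.6% were higher on deposited TPM and 55.2% after this scaling. With factors taken from the tested genes only, a choice made after the results were seen, 10 of the 39 were higher and 0 lower at an unadjusted p under 0.05, beside 5.55% and 6.23% of all tested genes, and with upper-quartile scaling of that kind 9 and 0, beside 4.85% and 6.61%. Of all genes below that p, 47.1% and 42.3% were then higher.

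Genes of the mitochondrial genome held 8.72%, 8.69%, 9.42% and 8.93% of TPM in control dishes 1 to 4 and 6.96%, 5.99%, 7.69% and 7.52% in exposed dishes 1 to 4. The exposed dishes all lay below the control dishes, and a lower share of these transcripts raises the TPM of the others. With TPM rescaled to the same total after leaving them out, the median difference of the 39 genes was 0.056 and that of all tested genes -0.0015, with 10 of the 39 higher and 0 lower at an unadjusted p under 0.05, beside 5.72% and 5.58% of the 12107 genes tested on this scale. Every exposed dish lay above every control dish in 5 of the 39 and below in 0, beside 3.83% and 3.25%. On this scale 7 of the 39 were negative: Orc1, Pole2 and Rpa2, positive as deposited, and Orc3, Gins3, Pold1 and Pold3, farther below 0 than as deposited. Below, a pair of values in parentheses after a difference gives it after median-of-ratios scaling and with the mitochondrial genes left out, in that order. The plot of medians by dish gives the same list dish by dish.

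**Figure D1:**
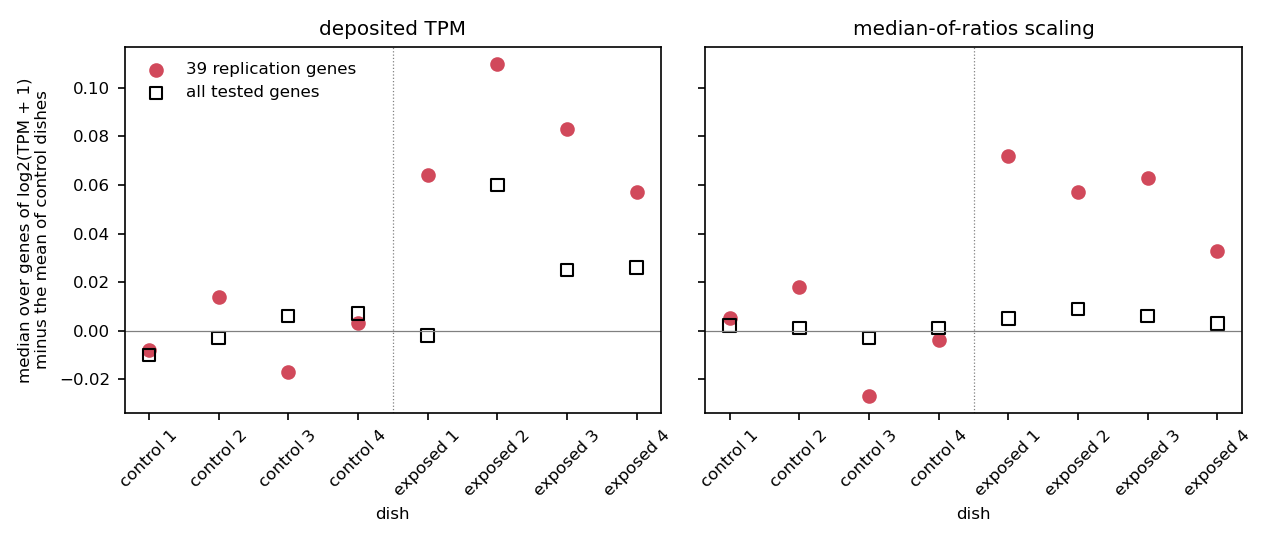
Median over the 39 replication genes (filled circles) and over all tested genes (open squares) of log2(TPM + 1) minus the mean of the control dishes, for each of 8 dishes, on deposited TPM (left) and after median-of-ratios scaling (right). On deposited TPM the median of the 39 genes lay between 0.057 and 0.11 in exposed dishes and between -0.017 and 0.014 in control dishes, and after scaling between 0.033 and 0.072 and between -0.027 and 0.018.

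Dish by dish on deposited TPM, the median of the 39 genes relative to the control mean was 0.064, 0.11, 0.083 and 0.057 in exposed dishes 1 to 4, and that of all tested genes was -0.002, 0.06, 0.025 and 0.026. Exposed dish 2 was the highest on both. After median-of-ratios scaling the 39 genes stood at 0.072, 0.057, 0.063 and 0.033 in the same order, with exposed dish 1 highest.

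The 9 genes of origin recognition and licensing had a median difference of 0.05 (0.028 after median-of-ratios scaling and 0.021 without the mitochondrial genes). Of these, 3 were higher at an unadjusted p under 0.05 as deposited, 1 after median-of-ratios scaling and 0 with the mitochondrial genes left out. At that p 12% of all tested genes were higher on deposited TPM, 6.79% after median-of-ratios scaling and 5.72% with the mitochondrial genes left out. Cdc6, the loader that recruits the helicase to origins (chromosome 11 from 98907801 to 98923940, GRCm38 throughout), measured 23, 25.3, 24.7 and 25 TPM in control dishes 1 to 4 and 25.5, 28.3, 26.6 and 26 TPM in exposed dishes 1 to 4. Every exposed dish was above every control dish, although exposed dish 1 exceeded the highest control dish only narrowly and the dishes overlapped with the mitochondrial genes left out. The difference was 0.11 on the log2 scale (standard error 0.045, adjusted p = 0.256 by limma), and 0.093 after median-of-ratios scaling. Orc4, a subunit of the origin recognition complex (chromosome 2 from 48902824 to 48950277), measured 62.3, 67.4, 63.4 and 63.3 TPM in control dishes 1 to 4 and 70.6, 67.5, 65.3 and 68.8 TPM in exposed dishes 1 to 4. Of the exposed dishes 3 exceeded the highest control dish and dish 3 lay below it. Its difference was 0.085 on the log2 scale (standard error 0.035, adjusted p = 0.281 by limma), 0.063 after scaling and 0.056 with the mitochondrial genes left out. Exons of Acvr2a (mean 8.59 TPM) and Mbd5 (9.83 TPM) cover 6% and 1.8% of the exon bases of Orc4 on the opposite strand. Cdt1, which loads the helicase with Cdc6, averaged 56.3 TPM over the 8 dishes with a difference of 0.11 (0.087 and 0.08). Gmnn encodes geminin, the inhibitor of Cdt1. Its mean was 99.7 TPM, the highest of this role, and its difference 0.037 (0.015 and 0.0077). The other subunits of the complex differed widely in level. Orc1 averaged 10.6 TPM with a difference of 0.015 (-0.0058 and -0.012). Orc2 averaged 61.3 TPM with a difference of 0.052 (0.029 and 0.022). Exons of Nif3l1, at a mean of 31.5 TPM, cover 29.8% of the exon bases of Orc2 on the opposite strand. For Orc3 the mean was 21.5 TPM and the difference -0.02 (-0.042 and -0.049). Orc5 had a mean of 32.1 TPM and a difference of 0.038 (0.015 and 0.0087), and Orc6 a mean of 55.5 TPM and a difference of 0.05 (0.028 and 0.021). Exons of Vps35 (mean 135 TPM) cover 6.9% of the exon bases of Orc6 on the opposite strand, and those of Gm12743 (0.12 TPM) 10.8% of Orc1. With 1 dish left out, the difference lay between 0.023 and 0.056 for Orc5, 0.032 and 0.081 for Orc6, 0.0063 and 0.067 for Gmnn, -0.018 and 0.06 for Orc1 and -0.056 and 0.021 for Orc3. It turned negative for Orc1 without control replicate 1 (-0.0175), control replicate 2 (-0.0048), exposed replicate 1 (-0.0004) or exposed replicate 3 (-0.0012), and positive for Orc3 without control replicate 3 (0.021).

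The 5 genes of helicase activation had a median difference of 0.086 (0.065 after median-of-ratios scaling), and 2 were higher at an unadjusted p under 0.05 on deposited TPM and 0 on either other scale, beside 12%, 6.79% and 5.72% of all tested genes. Cdc45, which joins the MCM ring in the active helicase (chromosome 16 from 18780447 to 18811987), measured 27.8, 25.9, 25.7 and 25.1 TPM in control dishes 1 to 4 and 27.6, 28.2, 27.5 and 27.8 TPM in exposed dishes 1 to 4. The exposed dishes lay close together, and control dish 1 fell within their range while the other control dishes were lower. The difference was 0.086 on the log2 scale (standard error 0.038, adjusted p = 0.309 by limma), and 0.065 after scaling. Exons of Ufd1 (mean 63.9 TPM) cover 6% of its exon bases on the opposite strand. Gins4, a GINS subunit (chromosome 8 from 23226616 to 23237659), measured 55.6, 48.5, 48.2 and 54.4 TPM in control dishes 1 to 4 and 55.3, 56.6, 54.7 and 56.4 TPM in exposed dishes 1 to 4. Control dishes 1 and 4 were near the exposed dishes and control dishes 2 and 3 well below. Its difference was 0.11 on the log2 scale (standard error 0.049, adjusted p = 0.316 by limma), and 0.088 after scaling. Gins3, the least abundant of the 39 genes (chromosome 8 from 95633453 to 95645060), measured 7.73, 8.98, 7.77 and 7.92 TPM in control dishes 1 to 4 and 8.18, 7.76, 7.19 and 7.91 TPM in exposed dishes 1 to 4. It was lower on average in exposed dishes, with control dish 2 above all exposed dishes, exposed dish 3 below all control dishes and the others mixed. The difference was -0.054 on the log2 scale (standard error 0.063, adjusted p = 0.739 by limma), -0.074 after scaling and -0.081 with the mitochondrial genes left out. Gins1 averaged 40.8 TPM with a difference of 0.043 (0.021 and 0.014). Gins2 averaged 35.8 TPM with a difference of 0.087 (0.065 and 0.058), and exons of Gse1 (mean 18.8 TPM) cover 67.3% of its exon bases on the opposite strand. With 1 dish left out, the difference of Gins2 lay between 0.014 and 0.14, the lowest without exposed replicate 2, which held the highest value at 43 TPM. That of Gins1 lay between 0.014 and 0.061, the lowest without exposed replicate 1, and that of Gins3 between -0.077 and -0.0089, the nearest to 0 without control replicate 2. Whether strand was used in counting is not given in the sources used here, so values of genes with such partners are uncertain.

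The 9 genes of polymerases and primase had a median difference of 0.049 (0.027 after median-of-ratios scaling and 0.02 with the mitochondrial genes left out). Of these, 1 was higher at an unadjusted p under 0.05 on each of the 3 scales, beside 12%, 6.79% and 5.72% of all tested genes. Prim2, the large subunit of primase (chromosome 1 from 33453810 to 33669795), measured 43.1, 40.6, 42 and 41 TPM in control dishes 1 to 4 and 43.8, 46.7, 48.2 and 44.2 TPM in exposed dishes 1 to 4. The exposed dishes were all above the control dishes, exposed dish 1 by a small margin, and on both other scales the dishes overlapped. The difference was 0.13 on the log2 scale (standard error 0.039, adjusted p = 0.169 by limma), and 0.11 after scaling. Pola1, the catalytic subunit of polymerase α (chromosome X from 93304767 to 93632155), measured 24.2, 23.2, 23 and 23.7 TPM in control dishes 1 to 4 and 24.2, 25.5, 25.6 and 24.1 TPM in exposed dishes 1 to 4. Exposed dishes 2 and 3 were above all control dishes and the other exposed dishes were within or at the control range. Its difference was 0.075 on the log2 scale (standard error 0.037, adjusted p = 0.371 by limma), 0.053 after scaling and 0.047 with the mitochondrial genes left out. Prim1, the catalytic primase subunit, averaged 51.3 TPM with a difference of 0.049 (0.027 and 0.02). Pola2, the accessory subunit of polymerase α, was the most abundant of this role at 113 TPM, with a difference of 0.053 (0.031 and 0.024). The subunits of polymerases δ and ε had differences from -0.019 to 0.069, and from -0.042 to 0.047 after scaling. Pold1, the catalytic subunit of polymerase δ, averaged 52.7 TPM with a difference of -0.013 (-0.036 and -0.043). For its accessory subunits, Pold2 had a mean of 48.8 TPM and a difference of 0.069 (0.047 and 0.04), and Pold3 a mean of 41.7 TPM and a difference of -0.019 (-0.042 and -0.049). Pole, the catalytic subunit of polymerase ε, averaged 37.7 TPM with a difference of 0.04 (0.018 and 0.011). Its partner Pole2 averaged 17.8 TPM with a difference of 0.022 (0.0003 and -0.0064). Of the exon bases of Pole2, 245 are shared with Gm49384 (mean 10.3 TPM) on the same strand. With 1 dish left out, the difference lay between 0.028 and 0.075 for Pola2, -0.033 and -0.0036 for Pold1, 0.042 and 0.10 for Pold2 and 0.011 and 0.064 for Pole. That of Pold3 lay between -0.057 and 0.027 and was positive without control replicate 3 (0.0062), control replicate 4 (0.027) or exposed replicate 4 (0.0027), and that of Pole2 lay between -0.0022 and 0.04 and was negative without exposed replicate 3.

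**Figure D2:**
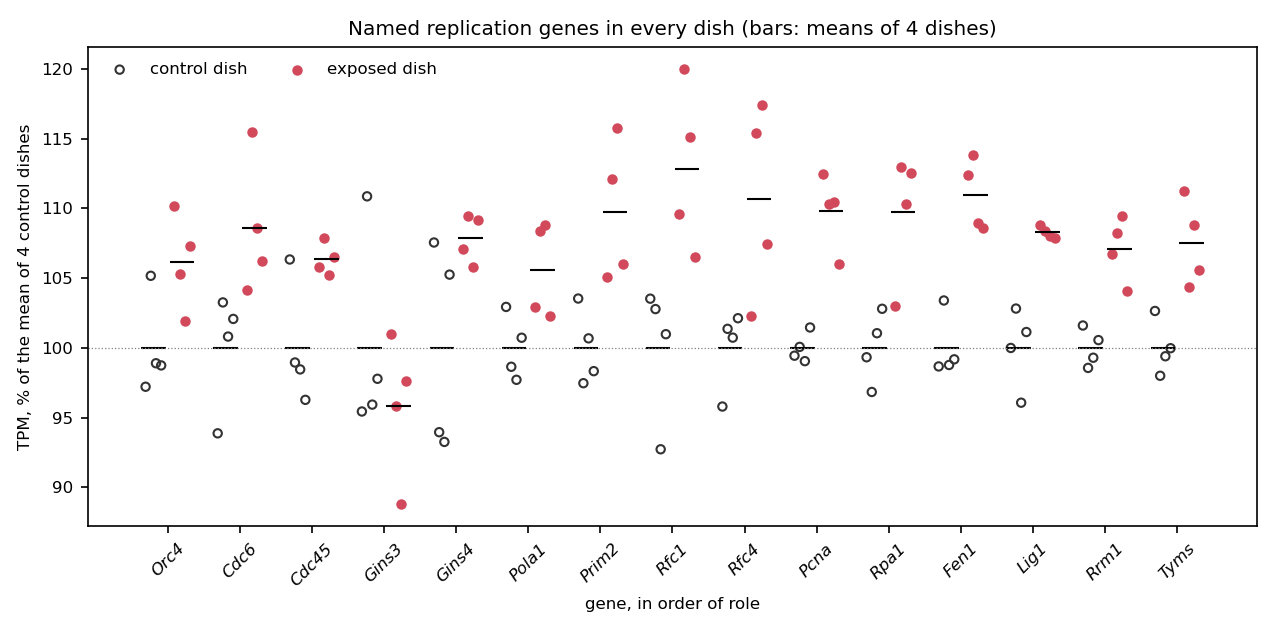
TPM of 15 replication genes in each of 4 control dishes (open circles) and 4 exposed dishes (filled circles), as a percent of the mean of the control dishes, with bars at the means of 4 dishes. The 15 include all 10 of the 39 genes in which every exposed dish is above every control dish (8.01% of all tested genes), among them Pcna, Fen1 and Lig1, since such genes were plotted by rule, and in Gins3 the exposed mean is lower.

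The clamp and clamp loader had the highest median difference of the 6 roles, 0.13 (0.11 after median-of-ratios scaling). Of its 6 genes 5 were higher at an unadjusted p under 0.05 on both scales and 4 with the mitochondrial genes left out, beside 12%, 6.79% and 5.72% of all tested genes. All 6 had a positive difference on each. Pcna, the sliding clamp and the most abundant of the 39 genes (chromosome 2 from 132249162 to 132253314), measured 280.0, 282, 279 and 286 TPM in control dishes 1 to 4 and 317, 311, 311 and 299 TPM in exposed dishes 1 to 4. The control dishes lay within a narrow range and all exposed dishes above it, exposed dish 4 the nearest. The difference was 0.13 on the log2 scale (standard error 0.024, adjusted p = 0.122 by limma), and 0.11 after scaling. Pcna can share reads with a near-identical pseudogene, Pcna-ps2, whose transcript is 99.2% identical over 781 bases. Pcna-ps2 measured 76.7, 82.5, 86.2 and 84.8 TPM in control dishes 1 to 4 and 89.9, 89.9, 93.2 and 82.9 TPM in exposed dishes 1 to 4. Its dishes overlapped. Summed, the pair gave a difference of 0.13 on the log2 scale (adjusted p = 0.122 by limma), with all exposed dishes above all control dishes, in a comparison chosen after the values were seen. Rfc1, the large subunit of the clamp loader (chromosome 5 from 65261850 to 65335670), measured 47.1, 46.8, 42.2 and 46 TPM in control dishes 1 to 4 and 49.9, 54.7, 52.4 and 48.5 TPM in exposed dishes 1 to 4. All exposed dishes were above all control dishes, and control dish 3 was lower than the rest. It had the largest difference of the 39 genes, 0.17 on the log2 scale (standard error 0.048, adjusted p = 0.153 by limma), and 0.15 after scaling. Rfc4, a small subunit (chromosome 16 from 23113943 to 23127737), measured 28.9, 30.6, 30.4 and 30.8 TPM in control dishes 1 to 4 and 30.8, 34.8, 35.4 and 32.4 TPM in exposed dishes 1 to 4. The dishes did not overlap, with exposed dish 1 just above the highest control dish, but did with the mitochondrial genes left out. The difference was 0.14 on the log2 scale (standard error 0.048, adjusted p = 0.205 by limma), and 0.12 after scaling. Exons of Eif4a2 (mean 191 TPM) cover 12.7% of its exon bases on the opposite strand. The other small subunits overlapped between conditions. Rfc2 averaged 105 TPM with a difference of 0.13 (0.10 and 0.10), Rfc3 29.9 TPM with 0.11 (0.091 and 0.084) and Rfc5 54.5 TPM with 0.13 (0.11 and 0.10). Without control replicate 3 the difference of Rfc3 was 0.044. Exons of Wsb2 (mean 122 TPM) cover 10.7% of the exon bases of Rfc5 on the opposite strand, and those of Lat2 (1.38 TPM) 15.1% of Rfc2.

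The 5 genes of single-strand binding and Okazaki fragment processing had a median difference of 0.11 (0.091 after median-of-ratios scaling), with 3 higher at an unadjusted p under 0.05 on each of the 3 scales, beside 12%, 6.79% and 5.72% of all tested genes. Fen1, the flap nuclease that trims lagging strand fragments (chromosome 19 from 10199132 to 10204169), measured 114, 119.8, 114 and 115 TPM in control dishes 1 to 4 and 130.2, 132, 126 and 126 TPM in exposed dishes 1 to 4. All exposed dishes lay above all control dishes, and control dish 2 was the highest control dish. The difference was 0.15 on the log2 scale (standard error 0.027, adjusted p = 0.122 by limma), and 0.13 after scaling. Exons of Gm10143, at a mean of 1.17 TPM, cover 78.8% of its exon bases on the opposite strand, and those of Tmem258, at a mean of 184 TPM, cover 5.4%. Lig1, the ligase that joins the fragments (chromosome 7 from 13277283 to 13311433), measured 90.9, 93.5, 87.4 and 92 TPM in control dishes 1 to 4 and 99, 98.6, 98.3 and 98.1 TPM in exposed dishes 1 to 4. The exposed dishes were close to one another and all above the control dishes. Its difference was 0.11 on the log2 scale (standard error 0.027, adjusted p = 0.125 by limma), and 0.091 after scaling. Exons of Zswim9 (mean 2.25 TPM) cover 5.8% of the exon bases of Lig1 on the opposite strand. Rpa1, the large subunit of the protein that coats single-stranded DNA (chromosome 11 from 75298166 to 75348324), measured 108, 105, 109.5 and 111 TPM in control dishes 1 to 4 and 112, 122, 119.6 and 122 TPM in exposed dishes 1 to 4. Exposed dish 1 was only just above the highest control dish and the other exposed dishes were clearly above it, and with the mitochondrial genes left out the dishes overlapped. The difference was 0.13 on the log2 scale (standard error 0.035, adjusted p = 0.14 by limma), and 0.11 after scaling. The smaller subunits of the same protein showed little difference. Rpa2 averaged 34.3 TPM with a difference of 0.019 (-0.0027 and -0.0096). Rpa3 averaged 40.1 TPM with a difference of 0.03 (0.0076 and 0.0007). With 1 dish left out, the difference lay between 0.0013 and 0.05 for Rpa2 and -0.0086 and 0.078 for Rpa3, negative for Rpa3 without control replicate 1 (-0.0086) or control replicate 3 (-0.0014).

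The 5 genes of nucleotide supply had a median difference of 0.094 (0.071 after median-of-ratios scaling), with 4 higher at an unadjusted p under 0.05 on deposited TPM, 3 after scaling and 2 with the mitochondrial genes left out, beside 12%, 6.79% and 5.72% of all tested genes. Rrm1, the large subunit of ribonucleotide reductase (chromosome 7 from 102441695 to 102469771), measured 135, 131, 132 and 134 TPM in control dishes 1 to 4 and 142, 144, 145 and 138 TPM in exposed dishes 1 to 4. The exposed dishes were all above the control dishes on deposited TPM and with the mitochondrial genes left out, and overlapped with them after median-of-ratios scaling. The difference was 0.10 on the log2 scale (standard error 0.025, adjusted p = 0.134 by limma), and 0.076 after scaling. Tyms, thymidylate synthase (chromosome 5 from 30058202 to 30073617), measured 139, 132, 134 and 135 TPM in control dishes 1 to 4 and 150.3, 141, 147 and 143 TPM in exposed dishes 1 to 4. Control dish 1 came closest to the exposed dishes, which were all above it on deposited TPM and overlapped on both other scales. Its difference was 0.10 on the log2 scale (standard error 0.028, adjusted p = 0.144 by limma), and 0.081 after scaling. Tyms shares a stretch of 357 bases at 95.5% identity with a transcript of Map3k2 (mean 20.4 TPM). Rrm2, the small subunit of the reductase, was nearly as abundant as Pcna at 288 TPM, with a difference of 0.092 (0.07 and 0.062). Tk1, the thymidine kinase of the salvage pathway, averaged 139.5 TPM with a difference of 0.094 (0.071 and 0.064). Dut, which removes dUTP, averaged 87.4 TPM with a difference of 0.081 (0.058 and 0.051), and of 0.037 without control replicate 3.

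**Figure D3:**
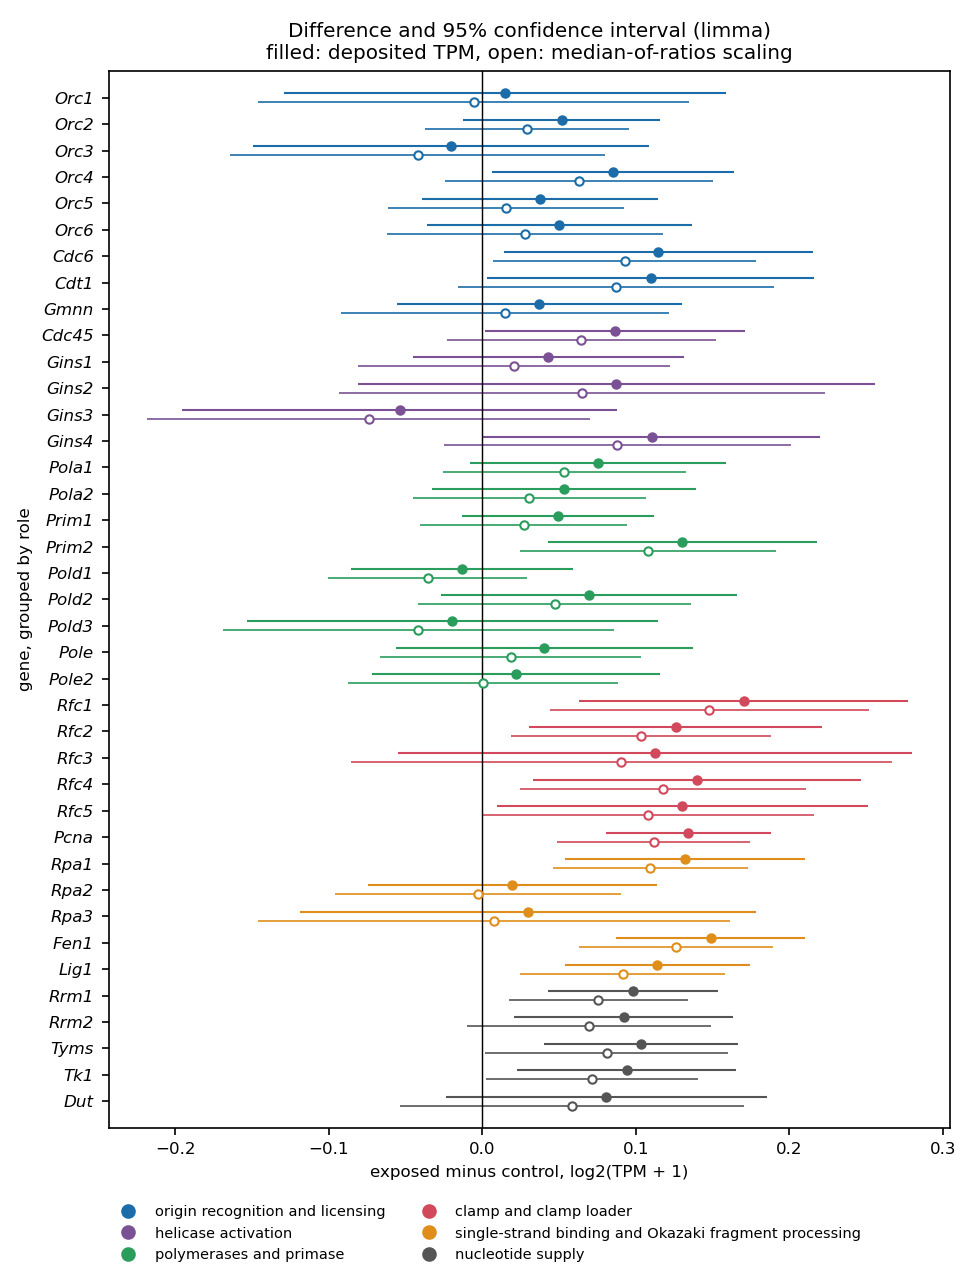
Difference in mean log2(TPM + 1) between exposed and control dishes for the 39 replication genes, grouped by role, with 95% confidence intervals from limma, on deposited TPM (filled) and after median-of-ratios scaling (open). All 6 genes of the clamp and clamp loader are positive on both scales, and 0 of the 39 genes had an adjusted p under 0.05.

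Levels within a complex were unequal in TPM, which is per length. Among the subunits of the origin recognition complex, means ran from 10.6 TPM for Orc1 to 66.1 TPM for Orc4, and among the GINS subunits from 7.93 TPM for Gins3 to 53.7 TPM for Gins4. Among the loader subunits they ran from 29.9 TPM for Rfc3 to 105 TPM for Rfc2. Of the 5 genes of nucleotide supply, Dut was the least abundant at 87.4 TPM.

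**Figure D4:**
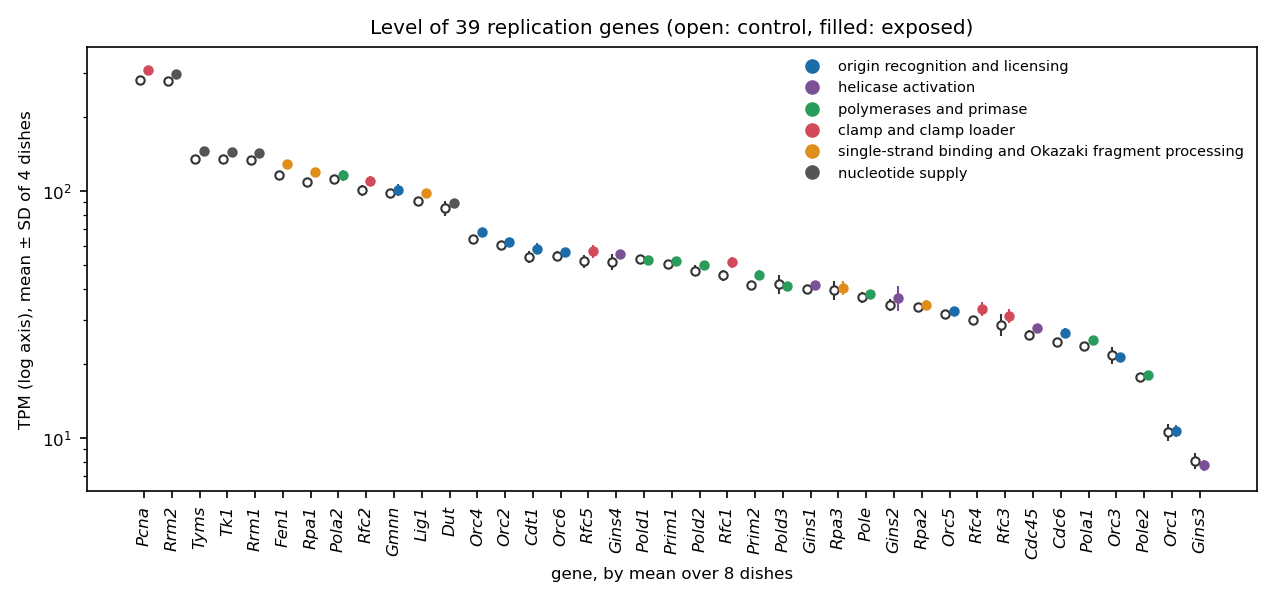
Mean TPM ± SD of 4 control dishes (open) and 4 exposed dishes (filled, coloured by role) for the 39 replication genes on a log axis, ordered by the mean over 8 dishes. Levels run from 295 TPM for Pcna to 7.93 TPM for Gins3, a range far wider than any difference between conditions.

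The 51 other replication genes had a median difference of 0.073 (0.052 after median-of-ratios scaling and 0.045 with the mitochondrial genes left out). Of these, 22 were higher and 0 lower at an unadjusted p under 0.05 on deposited TPM. The counts were 16 and 0 after median-of-ratios scaling and 13 and 0 with the mitochondrial genes left out. Among all tested genes the shares higher at that p were 12%, 6.79% and 5.72% on these scales and the shares lower 3.65%, 5.52% and 5.58%. Mcm3, a subunit of the MCM helicase, measured 131 ± 1.76 TPM (SD, n = 4) in control and 145 ± 2.7 TPM (SD, n = 4) in exposed dishes. Its difference was 0.15 on the log2 scale (adjusted p = 0.122 by limma). Shmt1, an enzyme of folate metabolism, measured 82.2 ± 2.18 TPM (SD, n = 4) in control and 93.8 ± 3.18 TPM (SD, n = 4) in exposed dishes, and its difference was 0.19 on the log2 scale (adjusted p = 0.122 by limma). On the lower side Cdc7, the kinase that triggers origin firing, measured 14.4 ± 1.64 TPM (SD, n = 4) in control and 12.9 ± 1.06 TPM (SD, n = 4) in exposed dishes, a difference of -0.14 on the log2 scale (adjusted p = 0.446 by limma), and of -0.086 without control replicate 3. Dtymk, thymidylate kinase, measured 198 ± 4.72 TPM (SD, n = 4) in control and 195 ± 3.21 TPM (SD, n = 4) in exposed dishes, a difference of -0.024 on the log2 scale (adjusted p = 0.702 by limma). That of Dtymk was -0.047 after median-of-ratios scaling and -0.054 with the mitochondrial genes left out, and lay between -0.039 and -0.015 with 1 dish left out, moving by over 1.5 times without control replicate 1, 2 or 3.

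The 24 G1/S regulators had a median difference of 0.055 (0.034 after scaling and 0.028 with the mitochondrial genes left out). Of these, 5 were higher and 0 lower at an unadjusted p under 0.05 on deposited TPM. The counts were 4 and 0 after scaling and 3 and 0 with the mitochondrial genes left out. At that p all tested genes gave 12%, 6.79% and 5.72% higher and 3.65%, 5.52% and 5.58% lower, here and for the next list. Tfdp1, the dimer partner of E2F factors, measured 175 ± 4.1 TPM (SD, n = 4) in control and 192 ± 6.23 TPM (SD, n = 4) in exposed dishes, a difference of 0.13 on the log2 scale (adjusted p = 0.122 by limma). Ccnd1, cyclin D1, measured 757 ± 12.4 TPM (SD, n = 4) in control and 805 ± 27.8 TPM (SD, n = 4) in exposed dishes, a difference of 0.089 on the log2 scale (adjusted p = 0.179 by limma). Cdk2 had a difference of -0.055 on the log2 scale (adjusted p = 0.539 by limma) and Cdkn1b, the inhibitor p27, one of -0.03 on the log2 scale (adjusted p = 0.664 by limma). That of Cdk2 was -0.077 after median-of-ratios scaling and -0.084 with the mitochondrial genes left out, and lay between -0.084 and -0.036 with 1 dish left out, the lowest without control replicate 1 and the highest without control replicate 2. That of Cdkn1b was -0.053 after median-of-ratios scaling and -0.06 with the mitochondrial genes left out, where its exposed dishes all lay below the control dishes, and -0.02 without control replicate 3. Of 19 G2/M genes, 8 were higher and 0 lower at an unadjusted p under 0.05 on deposited TPM. The counts were 2 and 0 after scaling and 0 and 0 with the mitochondrial genes left out. The median difference of the 19 was 0.065 (0.043 after scaling and 0.0355 with the mitochondrial genes left out). All 19 were positive on deposited TPM, 16 after scaling and 15 with the mitochondrial genes left out. Kif20a, a mitotic kinesin, had a difference of 0.08 on the log2 scale (adjusted p = 0.168 by limma), and Ube2c, a ubiquitin-conjugating enzyme of mitotic exit, one of 0.076 on the log2 scale (adjusted p = 0.183 by limma). With the mitochondrial genes left out they were 0.051 and 0.046. In these 3 lists 0 genes had an adjusted p under 0.05 by limma. Whether the 39 genes differ from these lists was not tested.

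**Figure D5:**
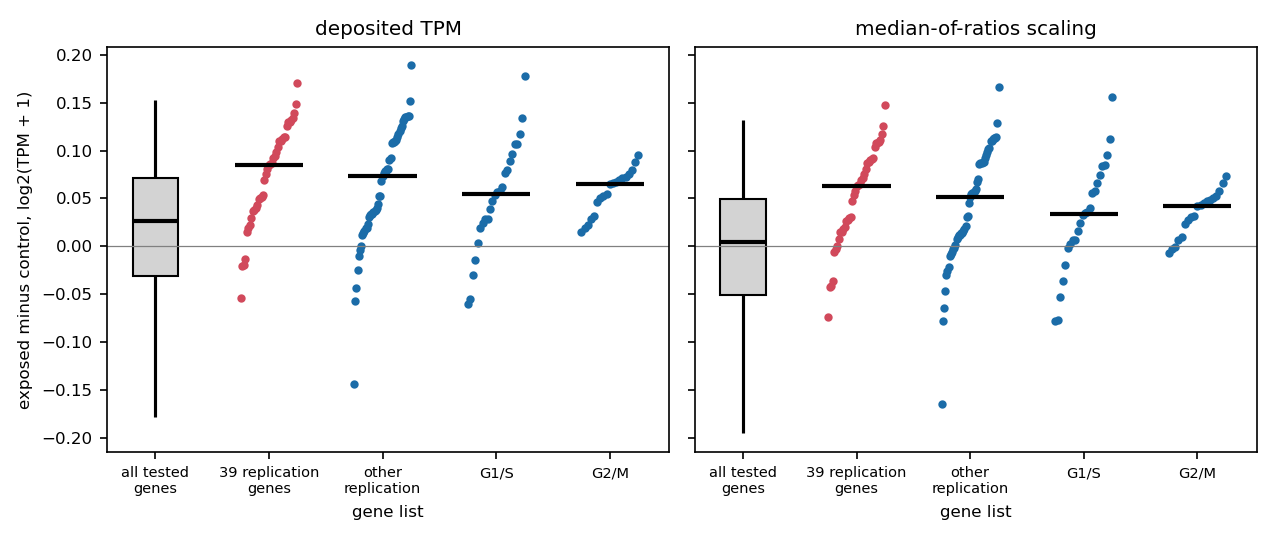
Difference in mean log2(TPM + 1) between exposed and control dishes for single genes (points) of the 39 replication genes, 51 other replication genes, 24 G1/S regulators and 19 G2/M genes, with lines at the medians, beside all tested genes (box from the 25th to the 75th percentile, whiskers to the 5th and 95th, line at the median), on deposited TPM (left) and after median-of-ratios scaling (right). The median of the 39 genes is 0.085 on the left and 0.063 on the right, and that of all tested genes 0.026 and 0.005.

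Of the 10 hepatocyte markers listed, 9 were matched by symbol and all 9 were tested, with Hnf4a at 180.3 to 218 TPM. The 9 ranged from Afp, at 0.48 to 1.33 TPM, to Krt8, the most abundant. Their summed level was 4808, 4832, 4619 and 4840 TPM in control dishes 1 to 4 and 4985, 5157, 4908 and 4971 TPM in exposed dishes 1 to 4. Most of this sum was Krt8, at 2206 to 2280 TPM in control and 2305 to 2431 TPM in exposed dishes, and Krt18, at 1825 to 1963 and 1992 to 2071 TPM. Of the 9 markers 5 had a lower mean on the log2 scale in exposed dishes, and their median difference was -0.039 (-0.062 after scaling). Alb was at 52.55 to 58.2 TPM in control and 46.1 to 53 TPM in exposed dishes, Apoa1 at 4.01 to 5.29 and 3.12 to 4.76 TPM and Cebpa at 8.24 to 11.1 and 7.35 to 8.73 TPM. At an unadjusted p under 0.05, 2 markers were higher and 1 lower on deposited TPM, and 1 was higher and 2 lower both after median-of-ratios scaling and with the mitochondrial genes left out. The shares of all tested genes at that p were 12%, 6.79% and 5.72% higher and 3.65%, 5.52% and 5.58% lower. Cholangiocyte markers, 3 of 4 tested and led by Krt19, summed to between 1203 and 1291 TPM in control and between 1218 and 1339 TPM in exposed dishes. Among the macrophage markers, 1 of 4 was tested, Adgre1 and Clec4f were at 0 in all 8 dishes, and the most abundant, Cd68, reached 2.21 TPM. Endothelial markers, 0 of 4 tested, reached 0.08 TPM with Cdh5 at 0 in all dishes. Stellate or fibroblast markers, 0 of 5 tested, reached 1.2 TPM for Col1a1 with Lrat at 0 in all dishes, and leukocyte markers, 0 of 2 tested, reached 0.2 TPM for Ptprc. Whether the marker levels relate to the differences of the replication genes was not tested.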

How the data were processed

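RNA from 8 dishes was sequenced as stranded mRNA libraries, 4 per condition. The authors deposited TPM values, 1 table per dish. The submitters' processing notes name Trimmomatic 0.39, STAR 2.7.4a, RSEM 1.3.3 and build mm10, and the annotation release is not given in the sources used here. TPM keeps no depth, so counting error is unknown and no interval for it is given.

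Genes with TPM of at least 1 in at least 4 dishes were tested with limma 3.58.1 under R 4.3.3 (functions lmFit and eBayes, prior variance following mean abundance) on log2(TPM + 1), adjusted by Benjamini-Hochberg over all 12122 tested genes, with a threshold of 0.05. The fit was tested on simulated data. Median-of-ratios factors came from genes above 0 in all 8 dishes. Upper-quartile factors came from genes above 0 in any dish. Positions came from GENCODE M21, which matched 55141 of 55401 identifiers, and near-identical transcripts from blastn 2.17.0 (at least 95% identity over at least 200 bases). Promoter sequences are from RefSeq, GRCm38.p6.

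The members, the other lists and the tests were chosen with earlier results of these data known. Genes given in every dish were, in each role, the 2 with the smallest limma p, plus any member whose dishes did not overlap and the most and least abundant member. In the other lists the genes named were the 2 with the smallest p in each direction. Alternatives were another pseudocount, other filters and scalings, limma without the trend, a replicate block, and fits that each dropped 1 dish. The 2 scalings with factors from the tested genes only, and the sum of Pcna with Pcna-ps2, were added after the results were seen. These scalings were tried because the median difference of all genes departed from that of an earlier analysis of these data, and the factors computed first were kept for the values reported.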

Additional observations from a re-analysis of the deposited data

Results flagged for a closer look

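Among 30 groups of 4 dishes (15 replication genes in 2 conditions), a single dish stood apart from the others of its condition in 2, where chance gives about 1 in 20. Fen1 was 119.8 TPM in control replicate 2, against 114.3 to 114.9 TPM in the other control dishes, a gap of 0.892 of the range. Gins3 was 8.98 TPM in control replicate 2, against 7.73 to 7.92 TPM, a gap of 0.848 of the range.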

How the results depend on the processing

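The fold changes of the 15 replication genes and 10 other genes given with a test kept their sign in every alternative run. Nearly all of them were chosen for a small p or for non-overlap in these same dishes, which favours a stable sign. Replication genes whose sign turned are named below. No replication gene had an adjusted p under 0.05 by limma in any of them.

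The count of genes with an adjusted p under 0.05 over the whole table went from 0 (1894 at an unadjusted p under 0.05) to 1 with TPM of at least 1 in all 8 dishes, median-of-ratios scaling, upper-quartile scaling or limma without the trend, the same gene each time (1110028F11Rik), and to 1 with either scaling when its factors came from the tested genes only, an alternative chosen after seeing the results. Leaving out each dish in turn gave 0 to 2, with 2 without control replicate 2 and 1 without control replicate 3.

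The 18 replication genes higher at an unadjusted p under 0.05 became 10 with TPM rescaled without mitochondrial genes. Upper-quartile scaling gave 13, beside 8.2% of all tested genes higher and 4.76% lower, and median-of-ratios scaling 13. With factors from the tested genes only, median-of-ratios scaling gave 10 and upper-quartile scaling 9. Leaving out each dish gave 12 to 17, beside 8.79% to 13.4% of all tested genes higher and 2.72% to 4.23% lower. The 10 genes whose dishes did not overlap became 6 with upper-quartile scaling (5.46% of all tested genes above, 2.78% below), 5 with rescaling (3.83%, 3.25%) and 5 with upper-quartile scaling from the tested genes (3.37%, 4.03%). Leaving out each dish gave 10 to 18 (18 without control replicate 1 and 10 to 13 in the other 7 fits), beside 9.06% to 13.4% of all tested genes above and 2.48% to 4.03% below. In both counts the exposed dishes were lower in 0 genes under every alternative.

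The median difference of 0.085 became 0.063 with median-of-ratios scaling, 0.056 with rescaling, 0.056 with median-of-ratios and 0.052 with upper-quartile scaling from the tested genes, and lay between 0.065 and 0.088 with each dish left out, the lowest being without control replicate 3. Over all 12122 genes the median, 0.026 as deposited, was 0.005 with median-of-ratios scaling, -0.0013 with its tested-gene form and -0.0053 with the upper-quartile one, and with rescaling it was -0.0015 over 12107 genes.

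Among the 35 positive differences, 0 turned negative with upper-quartile scaling, 2 with median-of-ratios scaling (Orc1 and Rpa2) and 3 with rescaling (also Pole2). With factors from the tested genes, 3 did so by median-of-ratios (the same 3) and 4 by upper-quartile scaling (also Rpa3). With 1 dish left out, 5 of the 39 differences turned sign in at least 1 fit (Orc1, Orc3, Pold3, Pole2 and Rpa3), and 18 moved by over 1.5 times in at least 1 fit, Gins3 alone among the 15 genes given with a test. Of the 10 other genes, Cdc7, Dtymk, Cdk2 and Cdkn1b did so.

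Replicate numbers are shared between conditions, but same-numbered dishes did not deviate together (correlations -0.035, -0.042, 0.0 and 0.026), and the highest of the 16 correlations was 0.161, between control dish 2 and exposed dish 3. With the replicate block, 0 genes of the table had an adjusted p under 0.05, 16 replication genes were higher at an unadjusted p under 0.05 (11.8% of all tested genes higher, 3.79% lower), the median difference was 0.085, and in 17 all 4 same-numbered differences were positive (18.4% of all tested genes, with 6.2% negative in all 4), a looser criterion than non-overlap.

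Depth is unknown, each condition has 4 dishes whose number of cell batches is not stated, and the incubator differed with the exposure. Values of genes with near-identical or overlapping partners are uncertain. For the remaining changes no cause was tested.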
